A study of Sus scrofa domesticus with 11 samples.

Results

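Erythroid genes, those of the red cell lineage, were followed in the liver of preterm piglets. The set was chosen by name and comprised HBB, ALAS2, AHSP, SLC4A1, EPB42, KLF1, GATA1 and HEMGN, which makes 8 genes. A row with the gene's symbol was found for 7 of them among 22029 genes in the deposited table. HEMGN was not analysed here. The question behind the set was how much of the erythroid RNA in this liver belongs to genes used by blood-forming precursors and how much to genes whose RNA also circulates in young red cells.

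Every liver was that of a preterm Yorkshire piglet at day of life 15, and all the animals had been fed by vein (parenteral nutrition). One group, of 5 libraries, was given SEFA-6179 at 48 mg/kg, a compound for which only this code name is used. The control group, of 6 libraries, was given 3 ml/kg of MCT, which from knowledge of the study is medium-chain triglyceride. The sources used here name no sex, litter or sequencing batch, and each library was taken as 1 animal. If libraries of a group did not come from separate animals, the p-values measure a spread that may be technical.

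Before birth the liver is a main site of red cell formation, and this role passes to the bone marrow around and after birth. Nucleated erythroid precursors depend on the transcription factors GATA1 and KLF1, which switch on the globin genes, haem synthesis and the proteins of the red cell membrane. When a precursor sheds its nucleus it becomes a reticulocyte, which enters the blood and keeps globin RNA for a time, so a piece of liver also holds red cell RNA from its blood. ALAS2 carries out the first step of erythroid haem synthesis, and AHSP binds free alpha globin. SLC4A1, the band 3 anion exchanger, and EPB42, protein 4.2, which ties band 3 to the membrane skeleton, belong to the red cell membrane.

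Total counts ran from 15974977 to 23416071 per library. ALB, which encodes albumin and marks hepatocytes, took between 4.04% and 11.6% of them. The 7 erythroid genes together took between 0.0105% and 0.0453%. One library stood apart for several of these genes: MCT replicate 6 was the highest of all 11 libraries for 5 of the 7. The group comparison of each of the 7 genes is therefore given with all libraries and without that library.

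Levels of different genes were compared on the FPKM scale, which divides counts by gene length and depth. HBB, the beta globin gene, had a median of 286 FPKM over the 11 libraries. ALAS2 followed at a median of 8.74 FPKM and AHSP at 4.27 FPKM. Far lower were SLC4A1 at 0.256 FPKM, EPB42 at 0.240 FPKM, GATA1 at 0.193 FPKM and KLF1 at 0.107 FPKM. HBB was above ALAS2, and AHSP above SLC4A1, in 11 of 11 libraries. ALAS2 was above AHSP in 9 of 11, with MCT replicate 6 and SEFA-6179 replicate 1 the exceptions. SLC4A1 exceeded EPB42 in 8 of 11 libraries, EPB42 exceeded GATA1 in 4 of 11, and GATA1 exceeded KLF1 in 7 of 11, so the order of the 4 lowest genes was not held across animals.

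HBB was measured well, with 1862 to 8030 counts per library. Levels within a gene are given in CPM, counts scaled to the library's total after TMM scaling, which evens out the composition of the libraries. With SEFA-6179, HBB was at 205, 463, 408, 277 and 328 CPM in replicates 1 to 5. With MCT it was at 92.3, 154, 130, 297, 164 and 369 CPM in replicates 1 to 6. The 4 lowest libraries were all MCT libraries, while MCT replicates 4 and 6 lay among the SEFA-6179 values, so the groups overlapped.

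HBB averaged 337 ± 102 CPM (SD, n = 5) in the SEFA-6179 group and 201 ± 107 CPM (SD, n = 6) in the MCT group. The log2 fold change, SEFA-6179 over MCT, was 0.74 ± 0.33 (SE). By edgeR's quasi-likelihood test its unadjusted p was 0.0434 and its adjusted p over all 13671 tested genes was 0.439, so HBB did not pass the threshold of 0.05. An unadjusted p below 0.05 was reached by 1472 tested genes, which is 10.8% of them. Without MCT replicate 6 the MCT mean was 167 ± 77.3 CPM (SD, n = 5), the log2 fold change was 1.01 ± 0.30 (SE) and the adjusted p from edgeR was 0.174. The direction of HBB was thus the same with and without that library, and the gene missed the threshold both times. MCT replicate 6 was the highest MCT library for HBB, so leaving it out raises this fold change by construction. As in any bulk tissue, fewer cells of a type and less RNA per cell cannot be told apart.

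ALAS2 did not follow HBB between the groups. It was at 12.9, 22.05, 18.0, 9.46 and 18.0 CPM in SEFA-6179 replicates 1 to 5. In MCT replicates 1 to 6 it was at 11.5, 22.2, 8.15, 37.2, 15.1 and 18.7 CPM. The SEFA-6179 range lay wholly inside that of MCT, whose highest value was replicate 4. The log2 fold change was -0.23 ± 0.34 (SE) and the edgeR adjusted p was 0.862. Without MCT replicate 6 it was -0.23 ± 0.37 (SE), with an edgeR adjusted p of 0.852. Without MCT replicate 4 the fold change was 0.0892 on the log2 scale (edgeR adjusted p = 0.949), so its sign rested on that library.

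AHSP, the alpha globin chaperone, was at 4.42, 4.96, 3.77, 1.78 and 2.58 CPM in SEFA-6179 replicates 1 to 5. In MCT replicates 1 to 6 it was at 1.39, 2.46, 1.78, 4.64, 1.63 and 16.6 CPM. The value in MCT replicate 6 was 3.35 times the next library, and the other 5 MCT values lay at or below the upper SEFA-6179 values. With all libraries the log2 fold change was -0.43 ± 0.63 (SE), with an edgeR adjusted p of 0.857. Without MCT replicate 6 it was 0.56 ± 0.39 (SE), with an edgeR adjusted p of 0.587, so the sign of AHSP was set by 1 library.

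SLC4A1, the band 3 gene, showed the same shape at a lower level. It was at 0.624, 2.25, 2.89, 0.476 and 1.66 CPM in SEFA-6179 replicates 1 to 5. MCT replicates 1 to 5 were at 0.347, 1.64, 0.741, 0.710 and 0.954 CPM, and MCT replicate 6 at 9.53 CPM. In raw counts this was 163 in MCT replicate 6 against 7 to 56 elsewhere. The log2 fold change was -0.54 ± 0.81 (SE) with all libraries and 0.84 ± 0.54 (SE) without MCT replicate 6, with edgeR adjusted p of 0.863 and 0.559.

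EPB42, whose product anchors band 3, was at 0.681, 1.10, 0.723, 0.357 and 0.615 CPM in SEFA-6179 replicates 1 to 5. In MCT replicates 1 to 6 it was at 0.248, 0.649, 0.395, 0.237, 0.449 and 3.68 CPM. MCT replicate 6 held 63 counts and no other library more than 19. The log2 fold change was -0.42 ± 0.70 (SE) with all libraries (edgeR adjusted p = 0.876) and 0.80 ± 0.47 (SE) without MCT replicate 6 (edgeR adjusted p = 0.507). Outside that library both membrane genes thus had the sign of HBB, and neither passed the test.

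KLF1 and GATA1, the transcription factors of nucleated precursors, were close to the detection limit. Neither passed the filter on low counts, so their fits come from the test with no filter, in which 44 of 22029 genes, or 0.2%, passed the threshold. KLF1 had 1, 7, 3, 3 and 10 counts in SEFA-6179 replicates 1 to 5 and 4, 14, 0, 1, 3 and 48 counts in MCT replicates 1 to 6. A count of 0 in MCT replicate 3 allows up to 0.148 CPM, the level of 3 counts, and the 48 counts of MCT replicate 6 correspond to 2.81 CPM. Outside that library KLF1 did not exceed 0.615 CPM in either group. Its log2 fold change was -1.16 ± 1.02 (SE) with all libraries and 0.44 ± 0.99 (SE) without MCT replicate 6, with edgeR adjusted p of 0.717 and 0.908.

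GATA1 had 10, 14, 10, 4 and 11 counts in SEFA-6179 replicates 1 to 5. In MCT replicates 1 to 6 it had 3, 0, 1, 6, 0 and 26 counts. The SEFA-6179 libraries lay between 0.238 and 0.808 CPM, the first 5 MCT libraries between 0 and 0.284 CPM, and MCT replicate 6 at 1.52 CPM. The 2 libraries without a count, MCT replicates 2 and 5, allow up to 0.130 and 0.168 CPM. With all libraries the log2 fold change was 0.76 ± 0.92 (SE), and the edgeR adjusted p was 0.821. Without MCT replicate 6 it was 2.46 ± 0.93 (SE), with an unadjusted p of 0.0148 and an edgeR adjusted p of 0.356. Even then MCT replicate 4, at 6 counts, lay above SEFA-6179 replicate 4, at 4 counts.

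**Figure D1:**
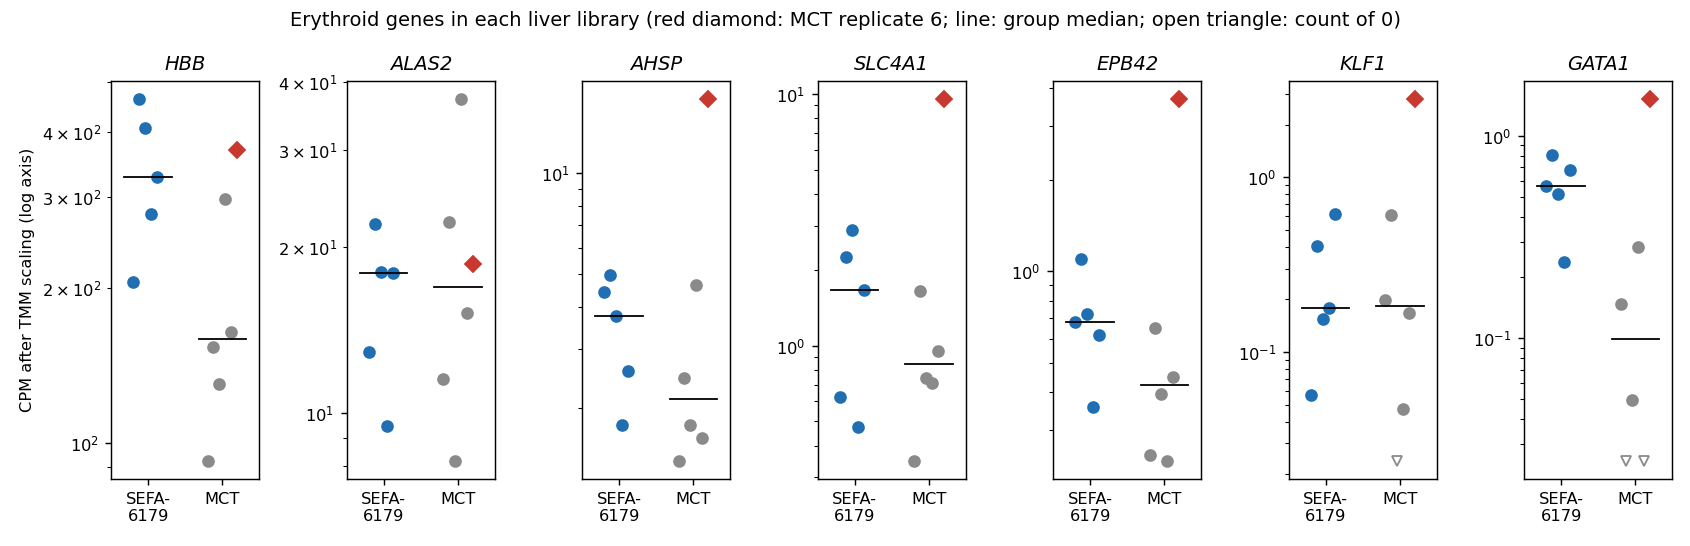
Level of each erythroid gene in each liver library, in CPM after TMM scaling on log axes that differ between panels; circles are SEFA-6179 (blue) and MCT (grey) libraries, the red diamond is MCT replicate 6, lines are group medians and open triangles mark counts of 0. MCT replicate 6 is the highest point for AHSP, SLC4A1, EPB42, KLF1 and GATA1, at 16.6, 9.53, 3.68, 2.81 and 1.52 CPM, but not for HBB or ALAS2.

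Across the 7 genes, 0 passed the threshold of edgeR with all libraries, with no filter, or without MCT replicate 6. Over all tested genes, 30 of 13671, or 0.219%, passed with all libraries, and 40 of 13513, or 0.296%, passed without MCT replicate 6. In the authors' deposited table, where 255 genes, or 1.16%, have an adjusted p below 0.05, 0 of the 7 do, and its value for HBB is a log2 fold change of 0.74 with an adjusted p of 0.297. EPB42 has no p-value there, so for that gene this is no test result. With all libraries, HBB alone reached an unadjusted p below 0.05 in edgeR, as did 10.8% of all tested genes. Without MCT replicate 6 both HBB and GATA1 did. The value of GATA1 comes from the fit with no filter, after the library where it was highest was left out. For HBB too, the library left out was the highest of the MCT group. The share of all genes at such a p was not counted without MCT replicate 6. There were 0 genes of the set with groups that did not overlap, against 1.49% of all tested genes.

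The direction of the set turned with 1 library. With all libraries, 2 of 7 genes, HBB and GATA1, had a fold change above 0, as did 49.8% of all tested genes. Without MCT replicate 6, 6 of 7 did, with ALAS2 the exception, against 49.9% of all tested genes, and 4 genes changed sign. That library was left out because it was the highest for 5 of the 7 genes. Leaving it out raises the fold changes of those 5 by construction. The same holds for HBB, of which it was the highest MCT library. The shift is thus no result on the treatment, and the share of all tested genes is no fair reference for it. This holds for the signs and for the median given next. The median log2 fold change of the 5 tested genes was -0.42 with all libraries and 0.80 without MCT replicate 6, while that of all tested genes was -0.0014 and -0.00099.

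**Figure D2:**
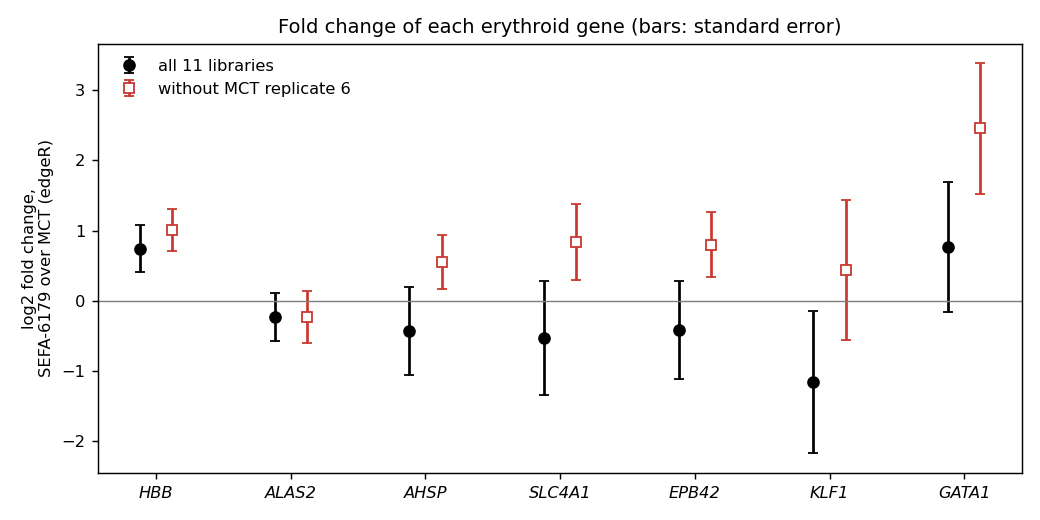
Log2 fold change of each erythroid gene, SEFA-6179 over MCT, from edgeR, with bars of 1 standard error; filled circles use all 11 libraries and open squares leave out MCT replicate 6. AHSP, SLC4A1, EPB42 and KLF1 lie below 0 with all libraries and above 0 without MCT replicate 6, while HBB and GATA1 lie above 0 in both and ALAS2 below.

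MCT replicate 6 was then described gene by gene against the other 10 libraries. For genes with at least 20 counts in all, 16916 in number, this library was the highest for 7.93% and more than 2-fold above the next library for 0.307%. Among the 7 erythroid genes it was the highest for 5 and more than 2-fold above the next for 4. Its ratio to the next library was 4.56 for KLF1, 3.36 for EPB42, 3.35 for AHSP, 3.30 for SLC4A1 and 1.88 for GATA1. Ranked by that ratio among the 13671 tested genes, EPB42, AHSP and SLC4A1 stood at places 3, 4 and 5. The excess was not confined to red cell genes of the lists used here. Named after their values were seen, ENSSSCG00000009046, which has no symbol here, stood at place 2 (3.77 times). CCDC38 (2.39 times), ENO4 (2.28 times), HJURP (2.28 times) and RBM3 (2.06 times) were also more than 2-fold above the next library. No other library was the highest for more than 1 of the 7 genes, and none was more than 2-fold above the next for any.

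HBB and ALAS2 did not share this. HBB in MCT replicate 6, at 369 CPM, was the highest of the MCT group but lower than in SEFA-6179 replicates 2 and 3. ALAS2 in MCT replicate 6, at 18.7 CPM, was lower than in MCT replicates 2 and 4 and SEFA-6179 replicate 2.

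Counts per 1000 HBB counts show the same contrast within each library, since depth cancels. KLF1 and GATA1 together gave 1.501 to 3.94 counts per 1000 HBB counts with SEFA-6179, with a median of 2.62. MCT replicates 1 to 5 gave 0.379 to 3.94, and MCT replicate 6 gave 11.7, with a 95% exact Poisson interval of 9.22 to 14.7. That interval lies above the value of each other library and covers counting error only. KLF1 alone gave 7.61 in MCT replicate 6 (5.61 to 10.1) and GATA1 alone 4.12 (2.69 to 6.04). The interval of GATA1 covers the 2.76 of SEFA-6179 replicate 1.

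AHSP stood at 45.0 per 1000 HBB counts in MCT replicate 6 and at 6.43 to 21.5 in the other libraries. SLC4A1 stood at 25.9 in that library and at no more than 10.7 elsewhere. Relative to HBB, MCT replicate 6 therefore had more of the chaperone, the band 3 gene and the precursor factors than any of the other libraries.

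The ratio of ALAS2 to HBB had another order. It was 62.7, 47.6, 44.1, 34.1 and 54.7 per 1000 HBB counts in SEFA-6179 replicates 1 to 5, and 125, 144, 62.6, 125, 92.2 and 50.6 in MCT replicates 1 to 6. The mean was 48.6 ± 10.8 (SD, n = 5) with SEFA-6179 and 99.9 ± 37.7 (SD, n = 6) with MCT. MCT replicates 1, 2, 4 and 5 lay above all SEFA-6179 libraries, while MCT replicates 3 and 6 lay within their range. This ratio was looked at after its values were seen, and its difference between the groups was not tested.

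**Figure D3:**
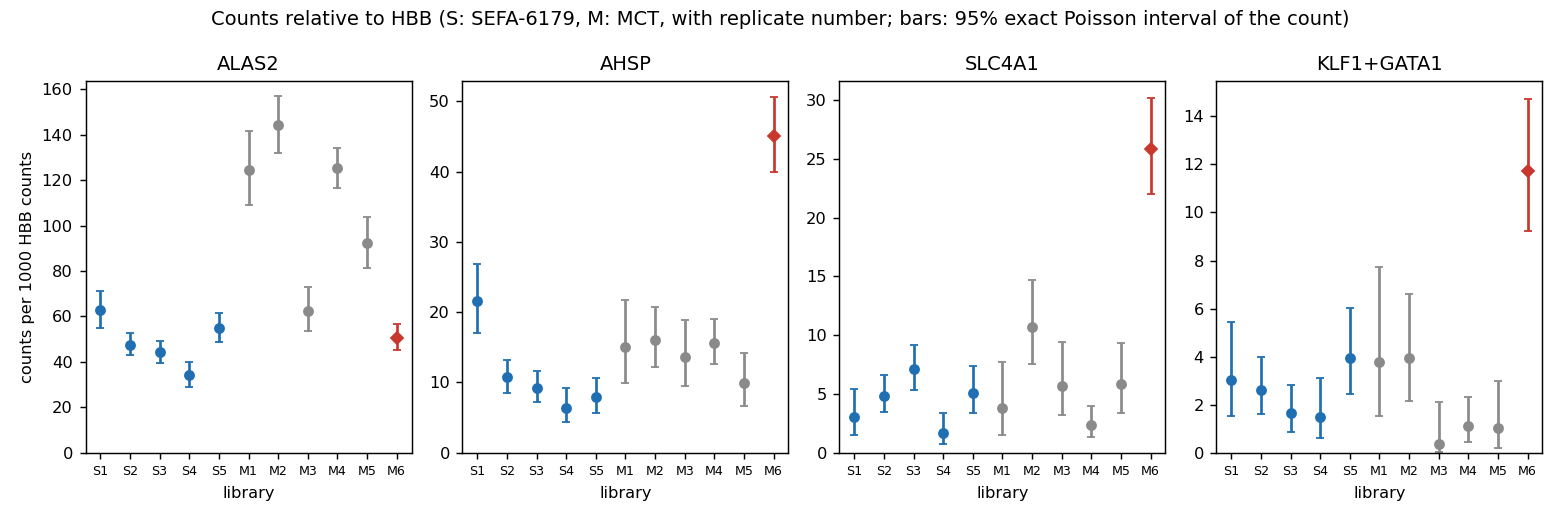
Counts of ALAS2, AHSP, SLC4A1 and of KLF1 and GATA1 together per 1000 HBB counts in each library (S, SEFA-6179; M, MCT; number, replicate), on linear axes from 0, with 95% exact Poisson intervals of the count. MCT replicate 6 stands at 45.0 for AHSP, 25.9 for SLC4A1 and 11.7 for KLF1 and GATA1, above every other library, but at 50.6 for ALAS2, among the SEFA-6179 values.

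The other genes of the red cell lineage were taken from 5 lists, with 63 genes in the table and 47 tested. Of these 0 passed the threshold of edgeR with all libraries or without MCT replicate 6, and 7 had an unadjusted p below 0.05, against 10.8% of all tested genes. The DESeq2 Wald test called 2 of the 47 and 2.06% of all genes to which it gave an adjusted p, and limma with library weights called 1 and 0.454%. In edgeR 31 of 47 had a fold change above 0 (49.8% of all tested genes), with a median of 0.14, and without MCT replicate 6 it was 34 of 46 (49.9% of all tested genes), with a median of 0.19. MCT replicate 6 was the highest library for 23 of the 60 genes with at least 20 counts, and more than 2-fold above the next for 8. These 8 lay in 2 of the 5 lists.

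Red cell membrane and cytoskeleton genes held 6 of the 8. In this list MCT replicate 6 was the highest library for 11 of 14 genes with at least 20 counts. With all libraries 3 of 8 tested genes had a fold change above 0, and without MCT replicate 6 it was 6 of 7. That rise was also built in, since the library left out was the highest for most of this list. Among those more than 2-fold above the next library, and named after their values were seen, were SPTB (4.40 times), the beta chain of red cell spectrin, ANK1 (2.25 times), which links spectrin to band 3, ADD2 (2.57 times), an adducin chain, and RHAG (4.31 times) and RHCE (4.65 times) of the Rh complex. SPTB was the tested gene with the highest such ratio of all, at 7.31 CPM against at most 1.66 CPM elsewhere.

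The 4 most abundant genes of this list were EPB41, which encodes protein 4.1, and DMTN, GYPC and AQP1. EPB41 averaged 61.2 ± 7.94 CPM (SD, n = 5) in the SEFA-6179 group and 58.2 ± 10.5 CPM (SD, n = 6) in the MCT group, and stood at 59.7 CPM in MCT replicate 6. DMTN, GYPC and AQP1 were at 14.5, 9.36 and 6.32 CPM in MCT replicate 6, with ratios to the highest other library of 1.00, 0.916 and 1.06. These 4, which are also active outside red cells, did not stand out in MCT replicate 6 as SPTB and the Rh genes did.

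Among 14 other erythroid transcription factors and receptors MCT replicate 6 was the highest library for 6. More than 2-fold above the next, and named after their values were seen, were TRIM58 (2.39 times) and GFI1B (2.01 times), on 29 and 16 counts. GFI1B encodes a transcriptional repressor that acts within the erythroid and megakaryocyte lineages. TAL1, which works in a complex with GATA1, was at 13.5 CPM in MCT replicate 6 and at most 11.6 CPM elsewhere. Its partners LMO2 and LDB1 were at 21.6 and 42.9 CPM there and at most 19.6 and 41.2 CPM elsewhere. ZFPM1, a cofactor of GATA1, was not raised there, at 29.6 CPM with a maximum elsewhere of 52.9 CPM.

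Of 16 haem synthesis and iron genes tested, 15 had a fold change above 0, against 49.8% of all tested genes, with a median of 0.19. None of the 16 passed the threshold of edgeR, and 3 had an unadjusted p below 0.05, against 10.8% of all tested genes. Again 15 of 16 lay above 0 and 0 passed without MCT replicate 6. The DESeq2 Wald test called 1 of them, ABCB6, a porphyrin transporter, named after its values were seen: its log2 fold change was 0.79 ± 0.20 (SE) with an edgeR adjusted p of 0.142, and without MCT replicate 6 it was 0.88 with an edgeR adjusted p of 0.0918. The 4 most abundant were TFR2, an iron sensor of hepatocytes, CPOX and ALAD, enzymes of haem synthesis, and STEAP3, an iron reductase. CPOX averaged 143 ± 36.2 CPM (SD, n = 5) in the SEFA-6179 group and 113 ± 11.1 CPM (SD, n = 6) in the MCT group, with an edgeR adjusted p of 0.507. MCT replicate 6 was the highest library for 4 of the 16, against 7.93% of all genes with at least 20 counts, and more than 2-fold above the next for 0. Hepatocytes also make haem and use many of these genes.

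In the other globin genes and the red cell enzymes MCT replicate 6 was the highest library for 0 of 4 and for 2 of 12 genes. Of the 4 most abundant enzyme genes, PRDX2, BLVRB, PKLR and SELENBP1, the last came nearest to the threshold, with 88.9 ± 28.6 CPM (SD, n = 5) in the SEFA-6179 group, 39.2 ± 10.9 CPM (SD, n = 6) in the MCT group and an edgeR adjusted p of 0.0693 (0.0936 without MCT replicate 6). It was the other gene called by the DESeq2 Wald test and the gene called by limma, and the liver itself also expresses it. HBE1 and HBZ, the globins of the embryo, had 32 and 65 counts over all 11 libraries together. HBQ1 ranged from 0.568 to 3.27 CPM. HBM, a globin of the alpha cluster, was highest in MCT replicate 4, at 14.8 CPM, and at 12.9 CPM in MCT replicate 6. An unnamed gene beside it, ENSSSCG00000007978, between HBQ1 and HBM on chromosome 3 (41482303 to 41487559 as the deposited table gives it), was at 160 CPM in MCT replicate 4 and 106 CPM in MCT replicate 6, and was picked out after its values were seen. ALAS2, HBM and this gene thus had their highest value in the same library, MCT replicate 4. For that gene the log2 fold change was -0.24 ± 0.54 (SE), with an edgeR adjusted p of 0.906.

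**Figure D4:**
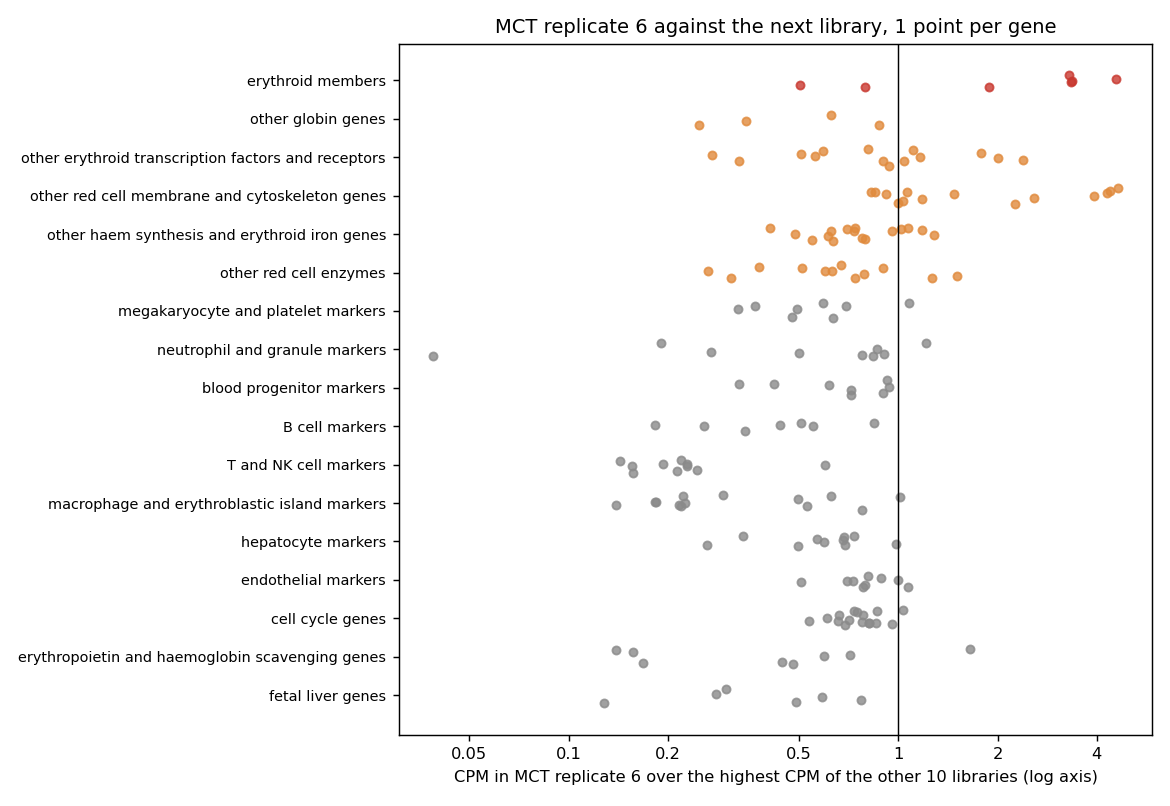
CPM in MCT replicate 6 divided by the highest CPM among the other 10 libraries, on a log axis, with 1 point per gene of at least 20 counts and 1 line per gene list; points right of 1 are genes with their highest level in MCT replicate 6. Points beyond 2 are found among the erythroid genes of the set (red), the red cell membrane genes and the erythroid transcription factors (orange), and in none of the 11 lists of other kinds (grey). Genes outside the lists are not drawn, and some of them also lie beyond 2.

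Markers of other cells were examined in the same way. In none of the 11 lists of other kinds did a gene in MCT replicate 6 exceed the next library by more than 2-fold. That library was the highest for 1 of 8 megakaryocyte and platelet genes, 0 of 8 blood progenitor genes, 1 of 9 neutrophil genes, 1 of 16 cell cycle genes and 0 of 10 hepatocyte genes. Summed over the list, megakaryocyte and platelet genes were at 83.3 CPM in MCT replicate 6, within the 49.1 to 134 CPM of the other libraries, and GP1BA and GP6 had a median count of 0. ITGA2B and ITGB3, at 41.1 and 33.5 CPM in MCT replicate 6, made up most of that sum. Blood progenitor genes were at 70.3 CPM, within 39.6 to 91.0 CPM, and cell cycle genes at 162 CPM, within 102 to 177 CPM. HLF alone made 51.8 CPM of the progenitor sum, so the sum says little about the other genes of that list. KIT, MYB and GATA2 of the progenitor list are also in the list of erythroid transcription factors and receptors. Endothelial genes were at 738 CPM, the highest sum of the MCT group, within 370 to 867 CPM over the other libraries. Erythropoietin and haemoglobin scavenging genes were at 6247 CPM in MCT replicate 6, below the 7054 to 10717 CPM of every other library. That sum is mostly HPX, at 5664 CPM there, so it describes this gene rather than the list. EPO was at 0.877 CPM there, against a median of 1.11 CPM over the other libraries. Named after their values were seen, BLVRA and ERFE went the other way. BLVRA was at 28.1 CPM against a median of 24.0 CPM. ERFE had 11 counts there and at most 9 elsewhere.

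Macrophage and erythroblastic island genes summed to 744 CPM in MCT replicate 6, and to between 230 and 2570 CPM in the others. C1QA, C1QC and C1QB, the complement genes of tissue macrophages, were at 103, 101 and 106 CPM there, with medians over the other libraries of 251, 260 and 240 CPM. Other genes of the list, named after their values were seen, went the other way: MRC1 was at 123.4 CPM against at most 122.0 CPM elsewhere, and MAF and MARCO were at 92.8 and 22.05 CPM against medians of 77.6 and 11.2 CPM. T and NK cell genes summed to 11.8 CPM in MCT replicate 6, near the lower end of the 10.5 to 41.1 CPM elsewhere. Hepatocyte genes summed to 162557 CPM, and to between 78525 and 211120 CPM in the other libraries. The part of these cell types in the erythroid values was not tested.

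How the genes varied together was examined over the 11 libraries on log2 CPM, for all 21 pairs, with 100000 permutations and Benjamini-Hochberg adjustment over the 21. Libraries were permuted across both groups and values were not centred by group. A difference between the groups that 2 genes share therefore enters their correlation and its p. After adjustment, 7 pairs passed 0.05 by Pearson's r and 4 by Spearman's rho. By Pearson's r the closest pair was SLC4A1 and EPB42, at r = 0.910 (adjusted permutation p = 0.00714) and rho = 0.800 (adjusted permutation p = 0.0273). By rho it was AHSP and GATA1, at rho = 0.815 (adjusted permutation p = 0.0273), with r = 0.773 (adjusted permutation p = 0.0267), and r was 0.602 without the 2 libraries farthest from the median of AHSP. For SLC4A1 and EPB42, r was 0.795 without the 2 libraries farthest from the median of SLC4A1 and 0.789 without MCT replicate 6. Band 3 and the protein that anchors it thus varied together over the remaining libraries as well.

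By Pearson's r HBB went most closely with GATA1, at r = 0.759 (adjusted permutation p = 0.0267) and rho = 0.797 (adjusted permutation p = 0.0273), and r was 0.824 without the 2 libraries farthest from the median of HBB. By rho it went most closely with AHSP, at rho = 0.800 (adjusted permutation p = 0.0273), with r = 0.662 (adjusted permutation p = 0.0580) and r = 0.522 without the 2 libraries farthest from the median of HBB. Within the 10 pairs among AHSP, SLC4A1, EPB42, KLF1 and GATA1 the median r was 0.776 with all libraries and 0.485 without MCT replicate 6. For AHSP and KLF1, r was 0.581 (adjusted permutation p = 0.121; rho = 0.218, adjusted permutation p = 0.520), -0.18 without the 2 libraries farthest from the median of AHSP, and -0.01 without MCT replicate 6. All these values share library depth, and KLF1 and GATA1 rest on few counts.

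The tested genes most like HBB by Pearson's r over the 11 libraries were STOML2 (0.961), XPOT (0.901), RPS28 (0.873), HAGHL (0.863), BCAT2 (0.860) and PSTPIP1 (0.860). Those most like KLF1 were AHNAK (0.895), SPTB (0.892), OCIAD2 (0.882), PLK2 (0.859), INPP5A (0.855) and HJURP (0.851). None of the 6 genes most like HBB was in an erythroid list, while SPTB, the spectrin chain, was among those most like KLF1. Without MCT replicate 6 the r of STOML2 with HBB was 0.960 and that of SPTB with KLF1 was 0.737.

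Several rows share their position with other genes, and no source used here says whether the counting used strand. The deposited table gives HBB on chromosome 9 from 4621187 to 4809453, a span of 188 kb for a gene length of 957 bases, and ssc-mir-10390 lies inside it with a mean of 41.2 counts. ALAS2 (chromosome X, 47871521 to 47896003) overlaps APEX2 on the opposite strand, which had 134 to 258 counts per library against 159 to 785 for ALAS2. EPB42 (chromosome 1, 128231997 to 128253031) overlaps an unnamed gene of the other strand, whose mean count was 0.364. AHSP (chromosome 3, 17059342 to 17060348), SLC4A1 (chromosome 12, 18957805 to 18974216), KLF1 (chromosome 2, 66144777 to 66148517) and GATA1 (chromosome X, 42898442 to 42905976) overlap no other gene of the table. HBM and ENSSSCG00000007978 lie inside NPRL3, a gene of the opposite strand with 709 to 1351 counts per library. HBM had 64 to 312 counts per library and also overlaps HBZ on the same strand. Near copies of globin genes may have shared or lost reads, so HBB, HBM and the unnamed gene beside it are uncertain to that extent.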

How the data were processed

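The genes of the set and all gene lists were chosen with earlier results of these data known. Per the file headers, the deposited table gives a raw read count per gene and library, its FPKM, and a normalized signal (counts over a size factor), not used further. Of their own comparison the authors deposited the log2 fold change with its p-value, raw and adjusted. Tools named in the submitters' processing notes are featureCounts 1.5.0-p3, HISAT2 2.0.5, DESeq2 1.20.0 and StringTie 1.3.3b. Their roles, the genome build and whether counting used strand are not stated in the sources used here.

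Deposited counts were tested in R 4.3.3 with edgeR 4.0.16: filterByExpr with a minimum count of 10, TMM scaling (trimmed mean of M values), robust quasi-likelihood test of SEFA-6179 against MCT, two-sided, Benjamini-Hochberg adjustment over all 13671 genes tested, threshold 0.05. The procedure was tested on simulated data. HBB, ALAS2, AHSP, SLC4A1 and EPB42 passed the filter. KLF1 and GATA1 did not, and were fitted with no filter. Correlations used log2 CPM with a prior count of 2. Alternatives were DESeq2 1.42.0 (size factors; Wald test), other filters, limma 3.58.1 with library weights, a replicate block, scaling without globin genes, and libraries left out. Those for KLF1 and GATA1, run without a filter, were chosen after seeing the data.

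All 7 genes were described. From the other lists, genes past the threshold were to be named, otherwise up to 4 tested genes with the highest mean CPM in erythroid lists and up to 3 elsewhere, and the 6 most like HBB and KLF1. Others named were chosen after their values were seen. Some list genes are not reported here. The table names 14022 genes by symbol, a reference list 779 more, and 7228 had an identifier only. Total counts limit the precision of low genes, where the level of 3 counts is the limit of a count of 0, and intervals cover counting error only.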

Additional observations from a re-analysis of the deposited data

Results flagged for a closer look

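MCT replicate 6 lay far above the other 5 MCT libraries for 5 of the 7 erythroid genes. Its gap to the nearest other library of the group, as a share of the whole range, was beyond the 95% critical value of Dixon's test for AHSP (16.6 CPM), SLC4A1 (9.53 CPM), EPB42 (3.68 CPM), KLF1 (2.81 CPM) and GATA1 (1.52 CPM). Of 14 groups tested, 7 genes in each of the groups SEFA-6179 and MCT, 5 were beyond it. For separate tests of normally spread values, chance alone gives about 1 in 20, or 0.7 of 14. The 5 come from the same library, so they are not separate events and 0.7 is no fair reference for them. KLF1 and GATA1 rest on few counts, and the values were not checked for a normal spread.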

How the results depend on the processing

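The count of all genes past the threshold was 30. It was 276 with the DESeq2 Wald test, 62 with limma and library weights, 8 with the replicate block, which leaves out MCT replicate 6, and 1 without MCT replicate 5 and SEFA-6179 replicate 4 together. Leaving out 1 library in turn gave between 0 and 53 genes. None of the 7 erythroid genes passed in any of these tests. EPB42 got no adjusted p from DESeq2.

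The replicate block reversed AHSP (0.64), SLC4A1 (0.72), EPB42 (0.81) and KLF1 (0.80) on the log2 scale. Limma with library weights reversed the same 4, at 0.0486, 0.31, 0.60 and 0.39. The block leaves out MCT replicate 6 by its construction, and for limma the cause was not tested. The labels tie same-numbered libraries by their number alone. The correlations of their deviations from the group means ran from -0.15 to 0.202. ALB took its lowest share of counts in replicate 3 of each group, at 4.24% with SEFA-6179 and 4.04% with MCT. Whether same-numbered libraries shared a litter or batch cannot be told from these values. With 1 library left out, the log2 fold change ran from 0.60 to 1.01 for HBB, -0.38 to 0.0892 (without MCT replicate 4) for ALAS2, -0.61 to 0.56 for AHSP, -0.88 to 0.84 for SLC4A1, -0.63 to 0.80 for EPB42, -1.64 to 0.44 for KLF1 and 0.50 to 2.46 for GATA1. SLC4A1, EPB42, KLF1 and GATA1 have mean counts under 50 and gave no value under that filter. Over all alternatives the adjusted p of HBB ran from 0.174 to 0.625, of ALAS2 from 0.702 to 0.970, of AHSP from 0.587 to 0.977, of SLC4A1 from 0.559 to 0.942, of EPB42 from 0.507 to 0.944, of KLF1 from 0.579 to 0.932 and of GATA1 from 0.356 to 0.903. KLF1 and GATA1 are limited by depth.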
